A study of Mus musculus with 18 samples.

Results

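The genes described here are 8 core members of the Hedgehog signalling pathway, the ligands Shh and Ihh, the receptor Ptch1, the ligand-binding inhibitor Hhip, the signal transducer Smo and the transcription factors Gli1, Gli2 and Gli3. They are 8 of 19938 mouse genes measured by a probe set of their own symbol on Affymetrix Mouse Gene 1.0 ST arrays, and each of the 8 had 1 such probe set. The set was chosen by pathway membership after a fall of Hhip between adult and embryonic stem cells of 1 background had been seen in the same arrays, so that difference is described without a test. The values are RMA signals on the log2 scale, where a difference of 1 is 2-fold.

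Total RNA came from 6 groups of mouse stem cell cultures with 3 biological replicates each. Stem cells of embryonal origin (ES cells) and of adult origin, which the series title places in the germline, were measured undifferentiated on the 129SV background and on the Stra8-EGFP/Rosa26 background (Stra8 below). Differentiated ES and differentiated adult cells were measured on 129SV alone. The labels do not say how the cells were differentiated, for how long, whether feeder cells were present, what the mice's ages were, how many lines stand behind the replicates or whether replicates are separate cultures, so the p-values measure the spread between these arrays. In such cultures fewer cells of a type and less RNA per cell cannot be told apart.

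Hedgehog ligands are secreted, lipid-modified proteins. Without ligand, the membrane protein Ptch1 keeps Smo inactive, and Gli3 and part of Gli2 are processed into repressors. When ligand binds Ptch1, Smo becomes active, Gli2 works as an activator, and Gli1, Ptch1 and Hhip are transcribed as targets in most tissues, so that Ptch1 and Hhip, which both bind ligand, form a negative feedback and Gli1 is read as a sign of pathway activity. In the early embryo Ihh is known as a ligand of the visceral endoderm, and the surrounding mesoderm as the tissue that answers it.

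All 10 genes of a pluripotency list, Pou5f1 and Nanog among them, were well measured in the undifferentiated cells, with a list mean between 11.4 and 11.8 in each undifferentiated array and between 9.39 and 10.05 in each differentiated array. Tdgf1, Utf1 and Esrrb of that list, at 10.6 to 12.9 in the undifferentiated groups, were at 8.64, 9.13 and 8.41 in differentiated ES and at 9.84, 10.3 and 8.905 in differentiated adult cells. On differentiation 9 of the 10 were lower and 0 higher in ES cells (limma, adjusted p under 0.05; 27.3% and 27.9% of all genes). In adult cells 9 were lower and 1, Klf4 (0.33), higher (32.2% and 27.5%). In differentiated adult cells 7 were higher and 0 lower than in differentiated ES cells (19.4% and 12.8%). In adult Stra8 cells 8 were lower and 0 higher than in ES Stra8 cells (15.1% and 13.2%). Arrays of 1 group correlated across genes with r between 0.991 and 0.998. Replicate 3 of differentiated ES cells stood apart (r of 0.991 at the lowest, array weight 0.153), and results that rest on it are given with and without it. No detection call was available. As a guide to dimness, the 95th percentile of 1027 olfactory receptor genes, which these cells are not known for, lay between 6.43 and 6.60 in the 6 groups and is called the dim level here. Shh lay near it in every group and Hhip below it in both undifferentiated 129SV groups, whereas the other 6 members lay above it in all 18 arrays.

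**Figure D1:**
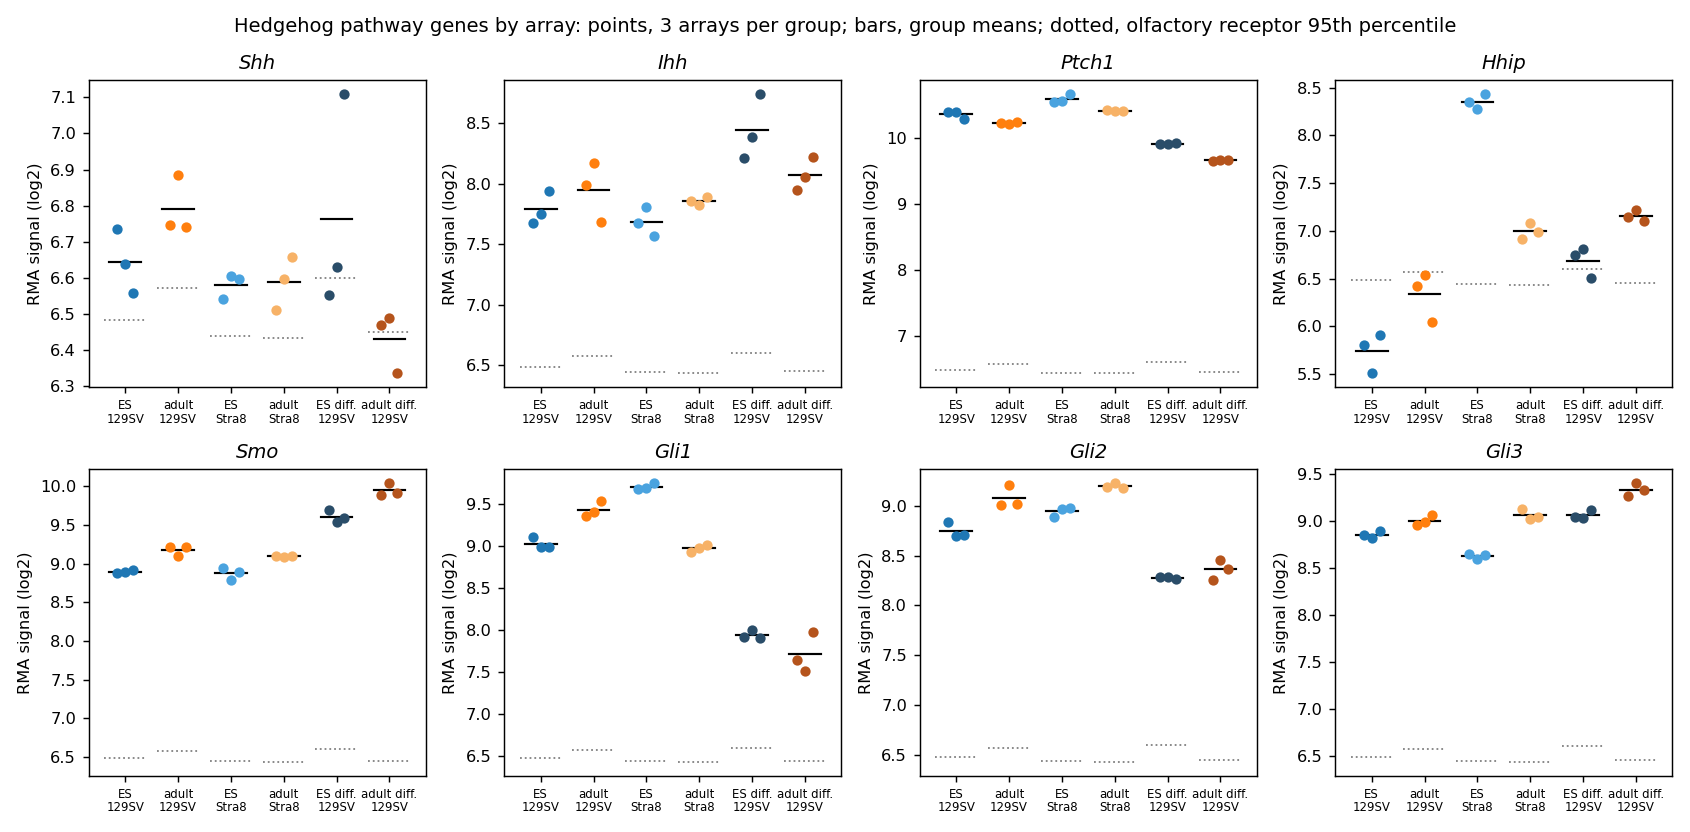
RMA signal (log2, vertical axis, a separate range per gene) of the 8 Hedgehog genes in the 6 groups; points are the 3 arrays of a group, black bars are group means and dotted lines the 95th percentile of olfactory receptor genes. Hhip reached 8.28 to 8.43 in ES Stra8 cells and at most 7.22 in any other array, while Gli1, Gli2 and Ptch1 were lowest in the differentiated groups.

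The ligand Shh, which patterns the neural tube and the limb, stayed within a narrow range. The arrays of adult 129SV cells read 6.75, 6.89 and 6.74, those of differentiated ES cells 6.55, 6.63 and 7.11, and those of ES 129SV cells 6.74, 6.64 and 6.56. Adult Stra8 cells gave 6.51, 6.60 and 6.66, ES Stra8 cells 6.54, 6.61 and 6.60, and differentiated adult cells 6.47, 6.49 and 6.34. Only the lowest group, the differentiated adult cells, had no overlap with its neighbour in the order of means, and the highest single value, 7.11, came from the array that stood apart. The group means spanned 0.36, less than in most genes (24.9% had a smaller span).

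Ihh, the ligand of visceral endoderm and of growth plates, was highest in differentiated ES cells. Its arrays there read 8.21, 8.38 and 8.74, and those of differentiated adult cells 7.95, 8.05 and 8.22. The 12 undifferentiated arrays lay between 7.57 and 8.17, and the group means fell from 7.95 in adult 129SV over 7.86 in adult Stra8 and 7.79 in ES 129SV to 7.68 in ES Stra8, with overlap at every step of that order, the differentiated groups included. The third ligand, Dhh, which is known from Sertoli cells of the testis, lay below the dim level in 5 groups (group means of 6.31 to 6.44) and at 6.81 in differentiated ES cells.

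The receptor Ptch1 was the member with the tightest replicates and the clearest order. Its arrays read 10.55, 10.57 and 10.67 in ES Stra8, 10.43, 10.42 and 10.42 in adult Stra8, and 10.40, 10.40 and 10.29 in ES 129SV. In adult 129SV cells they read 10.23, 10.22 and 10.25, in differentiated ES cells 9.91, 9.91 and 9.93, and in differentiated adult cells 9.65, 9.67 and 9.67. No group overlapped the next one in this order, and the whole span of the means was 0.93. The step from ES 129SV to adult 129SV cells (-0.13) depended on the scaling of the arrays and on single arrays, as described below.

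Hhip, which binds all Hedgehog ligands at the cell surface and keeps them from the receptor, had the widest measured span of the 8 genes, 2.61, whose lower end lies below the dim level. Its arrays read 8.35, 8.28 and 8.43 in ES Stra8, 6.91, 7.08 and 6.99 in adult Stra8, and 7.15, 7.22 and 7.10 in differentiated adult cells. In differentiated ES cells they read 6.75, 6.81 and 6.51, in adult 129SV cells 6.42, 6.54 and 6.05, and in ES 129SV cells 5.80, 5.51 and 5.91. ES Stra8 cells stood more than 1 log2 unit above every other array, and of the neighbours in the order only differentiated ES and adult 129SV cells overlapped. The mean in ES 129SV, 5.74, exceeded that of 81.7% of olfactory receptor genes.

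Hhip lies on mouse chromosome 8 (GRCm38.p6, 79965850 to 80058060) and Ptch1 on chromosome 13 (63508328 to 63573460). Both are textbook targets of Gli proteins, so the 250 bases before 1 RefSeq transcript start of each are shown, in the direction of the gene, which is the minus strand for both (chr8:80058009-80058258 and chr13:63565736-63565985).
Hhip: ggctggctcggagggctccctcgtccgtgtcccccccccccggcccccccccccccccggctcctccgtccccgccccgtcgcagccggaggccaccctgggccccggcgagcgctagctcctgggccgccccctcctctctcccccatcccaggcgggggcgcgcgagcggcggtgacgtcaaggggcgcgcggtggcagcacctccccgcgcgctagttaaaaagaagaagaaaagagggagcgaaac
Ptch1: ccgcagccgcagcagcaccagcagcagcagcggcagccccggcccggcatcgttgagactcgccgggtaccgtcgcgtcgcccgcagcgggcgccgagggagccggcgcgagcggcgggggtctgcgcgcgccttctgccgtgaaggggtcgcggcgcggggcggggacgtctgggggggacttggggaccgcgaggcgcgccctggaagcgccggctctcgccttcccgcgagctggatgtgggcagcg
Nothing is in capitals because no motif was found. The Gli core GACCACCCA, searched on both strands in windows of 300 bases that add the 50 bases after the start, matched neither of them nor the promoters of Gli2, Gli3, Ihh and Smo, the 6 members of this RefSeq table (GRCm38.p6). With any 1 of its letters changed it matched none of the 6 either. Of all 32851 RefSeq promoters examined, 0.253% held the exact core and 6.74% the core with at most 1 change. The 250 bases printed are rich in G and C, at 76.0% for Hhip and 78.4% for Ptch1.

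Smo, the seven-pass membrane protein that Ptch1 restrains, was high in differentiated cells. Its arrays read 9.89, 10.04 and 9.91 in differentiated adult cells and 9.69, 9.53 and 9.59 in differentiated ES cells, all above the 12 undifferentiated arrays, which lay between 8.79 and 9.21. Among the latter, adult 129SV (9.18) and adult Stra8 (9.09) came before ES 129SV (8.90) and ES Stra8 (8.87), and only the last pair overlapped.

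Gli1, the Gli protein that acts as an activator alone, was highest in ES Stra8 cells. Its arrays read 9.69, 9.69 and 9.75 there. Adult 129SV cells gave 9.36, 9.40 and 9.54, and ES 129SV cells 9.11, 8.99 and 8.99. In adult Stra8 cells they read 8.93, 8.98 and 9.01, in differentiated ES cells 7.92, 8.005 and 7.90, and in differentiated adult cells 7.65, 7.52 and 7.98. All 6 differentiated arrays lay at or below 8.005 and all 12 undifferentiated arrays at or above 8.93, and overlap between neighbours was limited to ES 129SV with adult Stra8 and to the differentiated groups with each other.

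Gli2, the main activator at the start of the response, had its highest means in adult Stra8 (9.19) and adult 129SV cells (9.08), followed by ES Stra8 (8.94) and ES 129SV (8.75), and lay at 8.36 and 8.28 in differentiated adult and ES cells. Gli3, the main repressor, ranged from 9.33 in differentiated adult cells to 8.63 in ES Stra8 cells. The 3 arrays of ES Stra8 cells, 8.64, 8.59 and 8.64, were the lowest of all 18 for Gli3 although the same cells had the highest Gli1 and Ptch1.

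On differentiation Gli1, Gli2 and Ptch1 fell and Smo, Hhip and Gli3 rose, in ES and in adult cells. In ES cells Gli1 fell by 1.09 ± 0.09 (SE, 3 arrays per group; limma, Benjamini-Hochberg adjusted p = 1.36e-08), Gli2 fell by 0.47 ± 0.06 and Ptch1 fell by 0.45 ± 0.05 (adjusted p = 4.46e-07). Smo rose by 0.71 ± 0.06 (adjusted p = 1.99e-08), Hhip by 0.95 ± 0.12 (adjusted p = 2.78e-06) and Gli3 by 0.21 ± 0.05. So 2 textbook targets fell while the third, Hhip, rose. Hhip did so from a mean of 5.74, below the dim level, to 6.69, close to the dim level of 6.60 in differentiated ES cells. The arrays of the compared groups did not overlap for any of these 6 genes.

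In adult cells the same 6 genes moved the same way. Gli1 fell by 1.72 ± 0.09, or 3.29-fold (adjusted p = 3.78e-11), Gli2 by 0.71 ± 0.06 and Ptch1 by 0.57 ± 0.05 (adjusted p = 2.05e-08). Smo rose by 0.77 ± 0.06, Hhip by 0.82 ± 0.12 (adjusted p = 1.31e-05) and Gli3 by 0.33 ± 0.05. The rise of Hhip again began below the dim level, at 6.33, and ended at 7.16. The ligands went separate ways. Ihh rose by 0.66 ± 0.13 in ES cells (adjusted p = 0.000382) but its change in adult cells was 0.13 ± 0.13 (adjusted p = 0.434), and Shh fell by 0.36 ± 0.11 in adult cells (adjusted p = 0.00854) with a change of 0.12 ± 0.11 in ES cells (adjusted p = 0.375).

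In ES cells 4 of the 8 members were called higher and 3 lower on differentiation, where 27.9% of all genes were called higher and 27.3% lower. In adult cells 3 were called higher and 4 lower, beside 27.5% and 32.2% of all genes. Groups did not overlap for 7 members in each comparison, where 58.0% of all genes did not overlap in ES and 62.6% in adult cells. Without replicate 3 of differentiated ES cells the change of Ihh was 0.51 (adjusted p = 0.00219), that of Hhip 1.04, and that of Shh turned to -0.05 (adjusted p = 0.574).

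**Figure D2:**
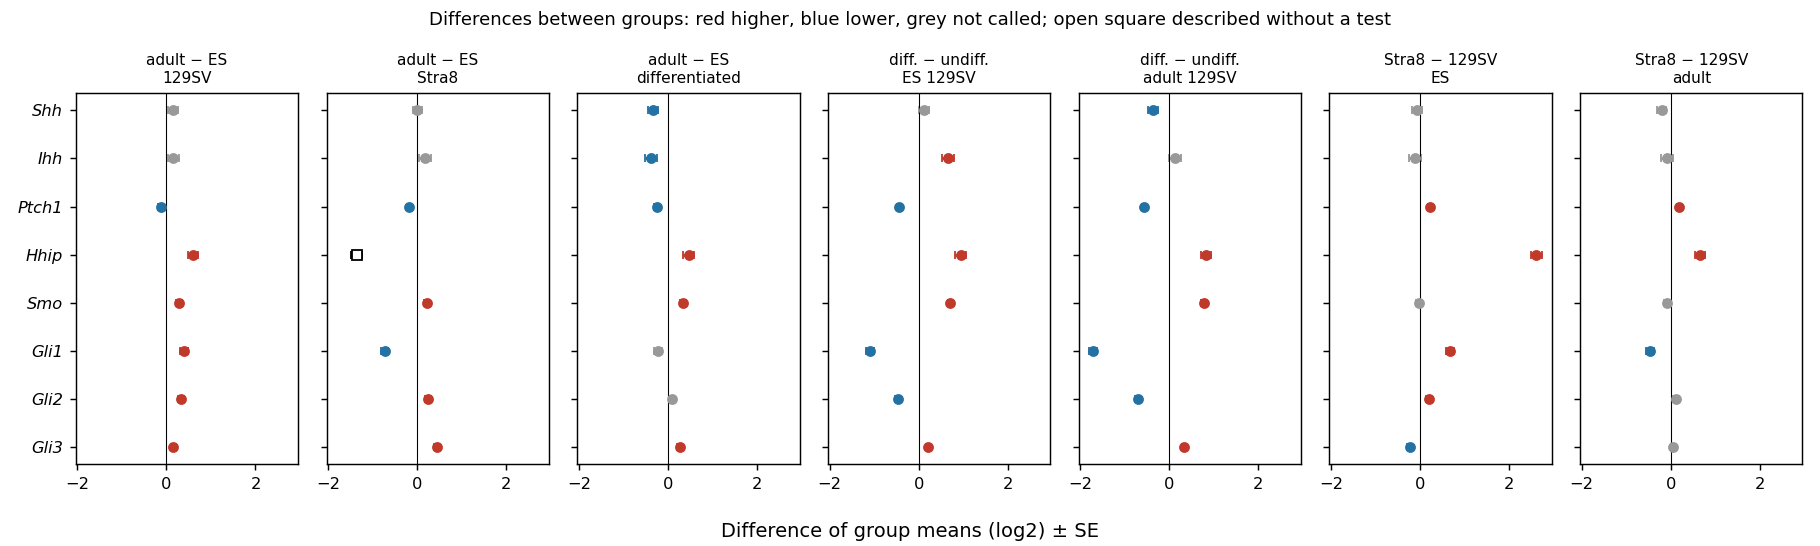
Differences of group means (log2, horizontal axis) with SE bars for the 8 genes (rows) in the 7 comparisons of 2 groups (panels); red and blue are genes called higher and lower at an adjusted p under 0.05, grey genes were not called and the open square was not tested. The largest difference is Hhip between the backgrounds of ES cells, 2.61, and Gli1 is the only member that fell by more than 1 on differentiation.

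The size of the response was compared between origins as an interaction, adult minus ES. Gli1 fell further in adult cells, with a difference of -0.63 ± 0.13 (adjusted p = 0.000600). The differences of Shh (-0.48 ± 0.15, adjusted p = 0.0172), Ihh (-0.53 ± 0.19, adjusted p = 0.0287) and Gli2 (-0.24 ± 0.09, adjusted p = 0.0404) passed too, which makes 0 members called higher and 4 lower beside 24.2% and 21.5% of all genes. For Hhip the difference was -0.12 ± 0.17, for Smo 0.06 ± 0.08, for Ptch1 -0.12 ± 0.07 and for Gli3 0.12 ± 0.08, and none of these passed (adjusted p from 0.155 to 0.581). Without replicate 3 of differentiated ES cells the difference of Ihh was -0.38 (adjusted p = 0.0756) and that of Shh -0.31 (adjusted p = 0.0159). The call of Ihh was also lost without replicate 1 or 2 of differentiated adult, ES 129SV or adult 129SV cells (adjusted p from 0.0532 to 0.0814). That of Gli2 was lost without replicate 1 or 2 of differentiated ES, 1 or 3 of differentiated adult, 2 or 3 of ES 129SV or 2 of adult 129SV cells (adjusted p from 0.0541 to 0.112).

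ES Stra8 cells differed from ES 129SV cells mostly in Hhip and Gli1. Hhip was higher by 2.61 ± 0.12 (adjusted p = 2.65e-11), a comparison that shares the ES Stra8 arrays with the difference for which the gene was proposed and whose ES 129SV arrays lie below the dim level. Gli1 was higher by 0.68 ± 0.09 (adjusted p = 8.05e-06), Ptch1 by 0.23 ± 0.05 (adjusted p = 0.000810) and Gli2 by 0.19 ± 0.06 (adjusted p = 0.0236), while Gli3 was lower by 0.23 (change -0.23 ± 0.05, adjusted p = 0.00234). Smo (-0.02 ± 0.06), Shh (-0.06 ± 0.11) and Ihh (-0.10 ± 0.13) did not pass.

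The count was 4 of 8 called higher and 1 lower, where 21.3% of all genes were higher and 20.0% lower. The groups did not overlap for 5 members (56.9% of all genes). Both counts include Hhip, which was proposed from a difference that shares the ES Stra8 arrays, so they are not independent of that choice. The call of Gli2 was lost without ES Stra8 replicate 2 or 3 or ES 129SV replicate 2 or 3 (adjusted p from 0.0718 to 0.0890). In adult cells the backgrounds differed less. Hhip was higher in adult Stra8 by 0.66 ± 0.12 (adjusted p = 0.000182), a comparison that shares the adult Stra8 arrays with that same difference, and Ptch1 by 0.19 ± 0.05 (adjusted p = 0.00376), whereas Gli1 was lower (-0.46 ± 0.09, adjusted p = 0.000358). The other 5 members did not pass, so that 2 were called higher and 1 lower beside 24.2% and 26.8% of all genes. Hhip is among the 2, so this count is not independent of the choice of Hhip either. Gli2 was called without adult 129SV replicate 2 (0.18, adjusted p = 0.0296), and groups did not overlap for 5 members (60.1% of all genes).

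Adult and ES cells of the 129SV background differed modestly and mostly upward in adult cells. Hhip was higher by 0.59 ± 0.12 (adjusted p = 0.000559), Gli1 by 0.40 ± 0.09 (adjusted p = 0.00121), Gli2 by 0.33 ± 0.06, Smo by 0.28 ± 0.06 and Gli3 by 0.15 ± 0.05 (adjusted p = 0.0301). Ptch1 was lower, with a change of -0.13 ± 0.05 (adjusted p = 0.0338). Both Hhip means lay below the dim level. Shh (0.15 ± 0.11) and Ihh (0.16 ± 0.13) did not pass.

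Thus 5 of 8 were called higher and 1 lower, where 23.0% of all genes were higher and 23.1% lower, and the groups did not overlap for 7 members (56.8% of all genes). The calls of Ptch1 and Gli3 were the weak ones. That of Ptch1 was lost when arrays were centred on their median (-0.11, adjusted p = 0.0934), quantile normalised (-0.04, adjusted p = 0.482) or when ES replicate 1 or 2 or adult replicate 1 or 2 was left out (adjusted p from 0.0748 to 0.123). That of Gli3 was lost without ES replicate 1 or 2 or adult replicate 2 or 3 (adjusted p from 0.0523 to 0.120).

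In the Stra8 background Hhip and Gli1 were lower in adult than in ES cells. The mean of Hhip was 6.99 against 8.35, a difference of -1.36 or 2.56-fold, described here without a test. Gli1 was lower by 1.66-fold, with a change of -0.73 ± 0.09 (adjusted p = 1.00e-05), and Ptch1 changed by -0.18 ± 0.05 (adjusted p = 0.0104). Gli3 was higher by 0.44 ± 0.05 (adjusted p = 1.20e-05), Gli2 by 0.25 ± 0.06 (adjusted p = 0.00729) and Smo by 0.22 ± 0.06 (adjusted p = 0.0111). The arrays did not overlap for Hhip or for these 5.

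Of the 7 members tested here 3 were called higher and 2 lower, beside 13.2% and 15.1% of all genes, and groups did not overlap for 6 of the 7 (47.6% of all genes). The call of Smo was lost without ES Stra8 replicate 2 (adjusted p = 0.0656) and that of Ptch1 without ES Stra8 replicate 3 (adjusted p = 0.0715). The effect of origin, Stra8 minus 129SV, differed for Gli1 by -1.14 ± 0.13 (adjusted p = 1.26e-06) and for Gli3 by 0.28 ± 0.08 (adjusted p = 0.00556), so that 1 of 7 was called higher and 1 lower where 21.3% and 21.8% of all genes were. For Hhip the difference between the effects was -1.95, again described without a test. The remaining 5 members did not pass, with differences between -0.14 and 0.02.

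After differentiation Hhip, Smo and Gli3 were higher and Ptch1, Shh and Ihh lower in adult than in ES cells. Hhip was higher in differentiated adult cells by 0.47 ± 0.12 (adjusted p = 0.00582), Smo by 0.34 ± 0.06 (adjusted p = 0.000298) and Gli3 by 0.27 ± 0.05 (adjusted p = 0.000968). Ptch1 was lower (-0.25 ± 0.05, adjusted p = 0.000584), as were Shh (-0.33 ± 0.11, adjusted p = 0.0260) and Ihh (-0.37 ± 0.13, adjusted p = 0.0399). Gli1 (-0.23 ± 0.09, adjusted p = 0.0598) and Gli2 (0.08 ± 0.06, adjusted p = 0.355) did not pass.

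These 3 higher and 3 lower members compare with 19.4% of all genes higher and 12.8% lower, and groups did not overlap for 5 members (37.6% of all genes). The calls of both ligands rested on the array that stood apart, since without replicate 3 of differentiated ES cells the change of Shh was -0.16 (adjusted p = 0.108) and that of Ihh -0.22 (adjusted p = 0.199). The call of Shh was also lost without replicate 3 of differentiated adult cells (adjusted p = 0.0861), and that of Ihh without replicate 2 of differentiated ES (adjusted p = 0.0510) or replicate 1 or 2 of differentiated adult cells (adjusted p = 0.141 and 0.0962). Without replicate 3 of differentiated adult cells Gli1 was called (-0.36, adjusted p = 0.000814). Deviations of same-numbered arrays of these 2 groups from their group means correlated at 0.153, 0.144 and 0.442. Those of differently numbered arrays ranged from -0.373 to 0.307, so pairing is not settled. With the replicate number as a block in a fit to these 6 arrays, the calls of Hhip (adjusted p = 0.00759), Ihh (adjusted p = 0.0220) and Smo (adjusted p = 0.0347) were made, and those of Ptch1 (adjusted p = 0.0572), Gli3 (adjusted p = 0.0577) and Shh (adjusted p = 0.126) were not.

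Genes around the core of the pathway were followed in a list with 24 measured members. On differentiation of ES cells 9 of the 24 rose and 10 fell, with a median of 0.05 (0.05 over all genes, of which 27.9% rose and 27.3% fell). In adult cells 10 rose and 7 fell, with a median of 0.09 (-0.08 over all genes, of which 27.5% rose and 32.2% fell). The genes that moved by at least 1 all rose and act outside the cell or at its surface. They were the glypican Gpc3, which binds Hedgehog and limits it, Scube2 and Disp1, which release the lipid-modified ligand, the co-receptor Gas1 and, in adult cells, the endocytic receptor Lrp2.

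Gpc3 rose by 2.58 ± 0.07 in ES cells (adjusted p = 6.38e-15), from arrays between 8.45 and 8.56 to arrays between 11.01 and 11.16, and by 1.79 ± 0.07 in adult cells. Scube2 rose by 1.55 ± 0.07 and 1.60 ± 0.07, and Disp1 by 1.02 ± 0.08 and 1.11 ± 0.08. Gas1 rose by 1.42 ± 0.11 in ES and by 2.17 ± 0.11 in adult cells (adjusted p = 4.17e-11), and the response was larger in adult cells by 0.74 ± 0.16 (adjusted p = 0.00116). Lrp2 rose by 0.87 ± 0.06 and 1.67 ± 0.06, also with a larger response in adult cells (0.80 ± 0.08, adjusted p = 4.23e-07). Not all secreted or surface genes of the list rose. The co-receptor Boc changed by -0.25 in ES and by 0.89 in adult cells, and Scube3 fell in adult cells (-0.48).

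**Figure D3:**
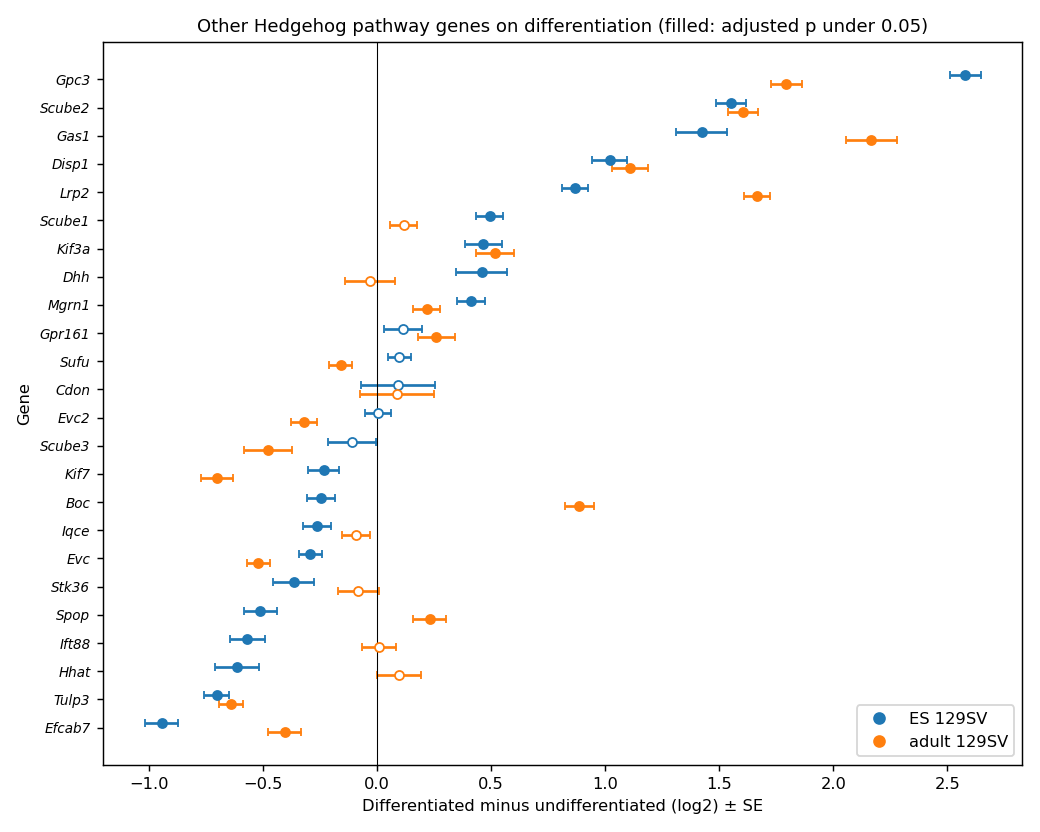
Change on differentiation (log2, horizontal axis) with SE bars of the 24 other Hedgehog pathway genes (rows, ordered by the change in ES cells) in ES 129SV (blue) and adult 129SV cells (orange); filled points passed an adjusted p under 0.05. Gpc3, Scube2, Gas1, Disp1 and Lrp2 lie to the right in both origins, and Boc moved in opposite directions (-0.25 in ES and 0.89 in adult cells).

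Between undifferentiated groups few of these genes moved by as much. The co-receptor Boc was lower in ES Stra8 than in ES 129SV cells by 1.31 on the log2 scale (change -1.31 ± 0.06, adjusted p = 4.06e-11). Lrp2 was higher in adult Stra8 cells, by 1.55 ± 0.06 over ES Stra8 (adjusted p = 2.72e-11) and by 1.64 ± 0.06 over adult 129SV. Between the backgrounds 10 of 24 were higher and 5 lower in ES Stra8 cells (median 0.06, all genes -0.01, 21.3% called higher and 20.0% lower), and 8 higher and 6 lower in adult Stra8 cells (median 0.02, all genes -0.08, 24.2% and 26.8%). Between adult and ES cells 7 were higher and 6 lower on 129SV (median 0.05, all genes 0.06, 23.0% and 23.1%), 6 and 3 on Stra8 (median -0.03, all genes -0.0033, 13.2% and 15.1%), and 10 and 4 after differentiation (median 0.17, all genes -0.03, 19.4% and 12.8%). The effect of origin differed between backgrounds for 17 of them, 7 upward and 10 downward (median -0.18, all genes -0.06, 21.3% of all genes called higher and 21.8% lower). The response to differentiation differed between origins for 14, 7 each way (median 0.06, all genes -0.08, 24.2% of all genes called higher and 21.5% lower).

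A list of 20 genes known as Hedgehog targets in some tissues did not move as 1 group. On differentiation 5 rose and 6 fell in ES cells (median -0.06, all genes 0.05, 27.9% of all genes called higher and 27.3% lower). In adult cells 8 rose and 9 fell (median -0.09, all genes -0.08, 27.5% and 32.2%). The endoderm factor Foxa2, which is also an endoderm marker, rose by 1.92 ± 0.09 and 1.97 ± 0.09. The cyclin Ccnd1 changed by -1.70 ± 0.06 and -2.45 ± 0.06, the semaphorin receptor Nrp2 by -2.21 ± 0.06 and -1.58 ± 0.06, and Mycn by -1.16 ± 0.05 and -1.42 ± 0.05. The chemokine Cxcl14 fell in ES cells (-2.01 ± 0.11).

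In ES cells the Stra8 background had lower Cxcl14 (-1.63 ± 0.11), Foxf1, a mesenchymal transcription factor (-1.26 ± 0.10), and Ccnd2 (-1.03 ± 0.05), and higher Foxm1, a regulator of mitosis (1.01 ± 0.05). Of the 20, 4 were higher and 6 lower (median -0.12, all genes -0.01, 21.3% of all genes called higher and 20.0% lower). The list was thus mixed in ES Stra8 cells, in which Gli1, Ptch1 and Hhip were highest. There Cxcl14, Foxf1 and Ccnd2 were lower and Foxm1 higher than in ES 129SV cells. Between adult and ES 129SV cells 5 were higher and 5 lower (median -0.01, all genes 0.06, 23.0% and 23.1%), with Cxcl14 at -1.60 ± 0.11 and Foxf1 at -1.36 ± 0.10. On Stra8 5 were higher and 2 lower (median 0.17, all genes -0.0033, 13.2% and 15.1%), with Cxcl14 at 1.02 ± 0.11. After differentiation 4 were higher and 6 lower in adult cells (median -0.12, all genes -0.03, 19.4% and 12.8%). Between backgrounds of adult cells 6 were higher and 2 lower (median 0.13, all genes -0.08, 24.2% and 26.8%). The effect of origin differed between backgrounds for 8 of the 20, 6 upward and 2 downward (median 0.18, all genes -0.06, 21.3% and 21.8%). The response to differentiation differed between origins for 10, 6 upward and 4 downward (median -0.07, all genes -0.08, 24.2% and 21.5%).

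Markers of other cell types moved along with several of these results. The mean of 18 fibroblast and mesenchyme genes was 10.92 to 10.975 in the ES 129SV arrays, 10.54 to 10.585 in adult Stra8, 9.97 to 10.03 in adult 129SV and 9.74 to 9.81 in ES Stra8. Of the undifferentiated groups, those with the higher mesenchymal mean, ES 129SV and adult Stra8, had the lower Gli1 and those with the lower mean had the higher Gli1. A list of 15 endoderm and extraembryonic genes split these groups the same way. Its mean was 7.78 in ES 129SV and 7.95 in adult Stra8, but 7.44 in adult 129SV and 7.38 in ES Stra8. Hhip did not follow this split, at 6.99 in adult Stra8 and 6.33 in adult 129SV cells. Both differentiated groups had lower mesenchymal means (8.84 in ES and 9.41 in adult cells) and lower Gli1 than any undifferentiated group. Between adult and ES cells 16 of the 18 mesenchymal genes were lower and 1 higher on 129SV (23.1% and 23.0% of all genes). On Stra8 18 of 18 were higher (13.2%), and in ES cells 16 were lower on Stra8 and 0 higher (20.0% and 21.3%). Prrx1 and Postn, which mark mesenchyme, were at 11.9 and 11.6 in ES 129SV and at 10.4 and 9.36 in ES Stra8. The part of mesenchymal or endoderm cells in the differences of Gli1, Hhip and Boc was not tested.

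On differentiation the mesenchymal list fell as well, with 17 of 18 lower and 1 higher in ES cells (27.3% and 27.9% of all genes) and 13 lower and 5 higher in adult cells (32.2% and 27.5%). Its mean was 8.80 to 8.87 in differentiated ES and 9.38 to 9.43 in differentiated adult arrays, and 16 of the 18 stayed above the dim level in both. Fap was below it in all 6 groups and Lum in both differentiated groups and adult 129SV. Thy1, a surface marker of that list, was at 7.41 and 7.62 in differentiated ES and adult cells and at 10.5 to 11.3 in the undifferentiated groups. The mean of 15 endoderm and extraembryonic genes rose from 7.77 to 7.79 in ES 129SV to 9.56 to 9.60 in differentiated ES arrays, and from 7.40 to 7.503 to 9.45 to 9.51 in adult arrays, with 14 of 15 higher and 0 lower in ES and 10 higher and 2 lower in adult cells. Lama1, Gata6 and Cubn of that list reached 13.03, 11.94 and 11.03 in differentiated ES cells and 13.4, 12.4 and 11.4 in differentiated adult cells. Between the differentiated groups 6 of the 15 were higher and 6 lower in adult cells (19.4% and 12.8% of all genes). Among undifferentiated cells, 9 were higher and 1 lower in adult than in ES Stra8 cells (13.2% and 15.1%). In adult Stra8 cells 7 were higher and 1 lower than in adult 129SV cells (24.2% and 26.8%). Lrp2 was higher in both of these comparisons. The part of endoderm in the changes of Ihh, Smo, Hhip and the ligand-facing genes, Lrp2 among them, was not tested.

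**Figure D4:**
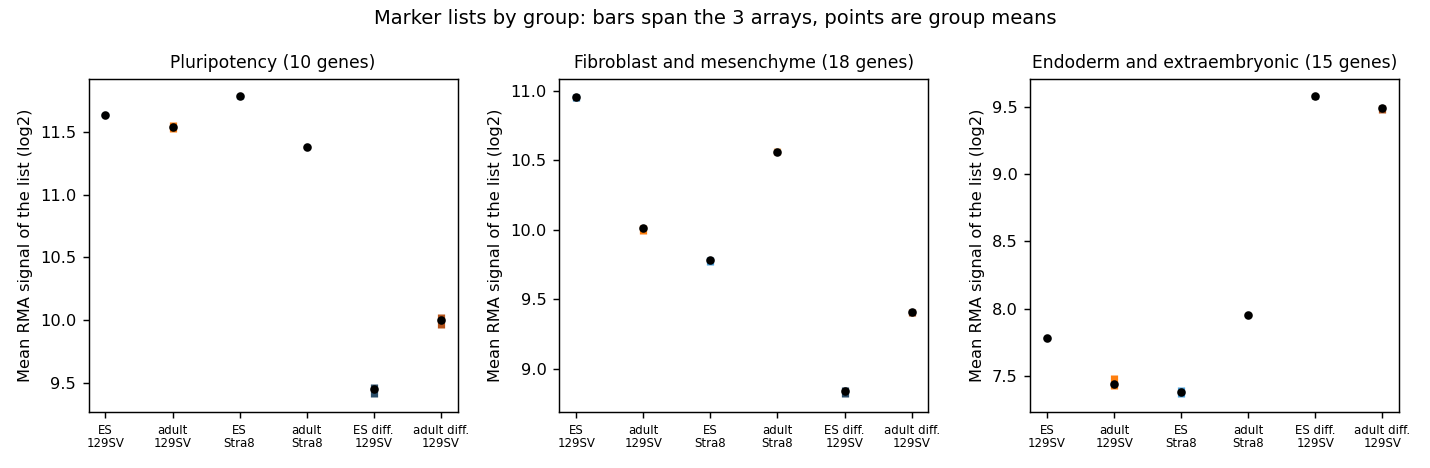
Mean RMA signal (log2, vertical axis) of 3 marker lists in the 6 groups; bars span the 3 arrays of a group and points are group means. The mesenchymal list is highest in ES 129SV and adult Stra8 cells among the undifferentiated groups, and the endoderm list is above 9.45 in every differentiated array and at most 7.96 in every other.

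Of 11 neural ectoderm genes, 8 or 9 were above the dim level in each group, and Neurog2 and Dcx were below it in every group. On differentiation 3 were higher and 4 lower in ES (27.9% and 27.3% of all genes) and 3 higher and 5 lower in adult cells (27.5% and 32.2%). Tubb3, a neuronal tubulin, changed in the same direction as Gli1 on differentiation (-1.12 in ES and -2.16 in adult cells), between ES backgrounds (1.28), between adult backgrounds (-1.46) and between origins (1.83 on 129SV and -0.91 on Stra8). Between the differentiated groups it was higher in adult cells (0.79), where Gli1 did not pass (-0.23). Pax6 went with Gli1 between ES backgrounds (1.07), between adult backgrounds (-0.57) and between origins (0.87 on 129SV and -0.77 on Stra8). It rose on ES differentiation (1.37), where Gli1 fell. Nes went with Gli1 between origins on 129SV (0.996) and between adult backgrounds (-0.86), and did not pass between ES backgrounds or between origins on Stra8. Otx2, Map2 and Zic1 went the other way from Gli1 between ES backgrounds (-0.22, -0.45 and -0.74). They did so between origins too (-0.67, -0.51 and -0.64 on 129SV, 0.28, 0.44 and 0.54 on Stra8). Of the 11, 2 were higher and 4 lower between ES backgrounds (21.3% and 20.0% of all genes) and 3 and 4 between adult backgrounds (24.2% and 26.8%). Between origins 4 were higher and 4 lower on 129SV (23.0% and 23.1%) and 4 and 2 on Stra8 (13.2% and 15.1%). Otx2 fell (-3.20 and -1.67) and Nes rose (1.29 and 0.74) on differentiation. The part of neural cells in these results was not tested.

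Of 11 genes of somatic testis cells, 6 or 7 were above the dim level in each group. The group means of Wt1, a factor of Sertoli cells and mesothelium, lay between 6.98 and 9.33, those of Inha, an inhibin subunit, between 6.85 and 8.73, and those of Myh11, a smooth muscle myosin, between 6.98 and 9.001. The steroid synthesis genes Cyp17a1, Cyp11a1 and Hsd3b1 were below the dim level in every group, and Amh in all but differentiated adult cells. On differentiation 6 of the 11 were higher and 1 lower in ES cells (27.9% and 27.3% of all genes), and 4 higher and 1 lower in adult cells (27.5% and 32.2%). Between backgrounds 1 was higher and 5 lower in ES Stra8 cells (21.3% and 20.0%). In adult Stra8 cells 0 were higher and 6 lower (24.2% and 26.8%), Wt1 among the latter (-1.43). Between adult and ES cells 3 were higher and 1 lower on 129SV (23.0% and 23.1%), 1 and 1 on Stra8 (13.2% and 15.1%), and 3 and 1 after differentiation (19.4% and 12.8%). The part of somatic testis cells in the results was not tested.

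Among 5492 other genes whose group means span at least 1, the 4 whose values followed Hhip most closely over the 18 arrays were microRNA genes. The Pearson correlation with Hhip was highest for Mir379 (0.935), Mir487b (0.927), Mir377 (0.925), Mir381 (0.925) and Phkb, a subunit of phosphorylase kinase (0.915), as a description over arrays that share groups. With Gli1 the correlation of Hhip was 0.17, and with Smo -0.001. Mir379 read 7.64, 7.30 and 7.55 in ES Stra8, 6.86, 6.91 and 6.18 in differentiated adult, 6.05, 6.47 and 5.29 in differentiated ES and 6.16, 5.99 and 5.68 in adult Stra8 cells. Adult 129SV cells gave 5.66, 5.26 and 5.71, ES 129SV cells 4.82, 4.59 and 5.04, so that its highest and lowest groups were those of Hhip. The means of Mir379 lay below the dim level in differentiated ES (5.94), adult Stra8 (5.94), adult 129SV (5.54) and ES 129SV cells (4.82). Those of Mir381 did so in adult 129SV (6.36) and ES 129SV cells (6.28).

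The 4 microRNA genes lie within 1 stretch of chromosome 12 (GRCm38.p6, plus strand), from 109709060 to 109740577, while Hhip is on chromosome 8. MicroRNAs pair with target transcripts through the seed, bases 2 to 8 of the mature strand, so the 7 mature sequences that RefSeq gives for these genes are shown with the seed in capitals.
mmu-miR-379-5p: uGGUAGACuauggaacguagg
mmu-miR-379-3p: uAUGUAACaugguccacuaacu
mmu-miR-381-5p: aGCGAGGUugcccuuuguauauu
mmu-miR-381-3p: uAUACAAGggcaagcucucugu
mmu-miR-487b-5p: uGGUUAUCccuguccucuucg
mmu-miR-377-5p: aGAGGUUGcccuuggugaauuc
mmu-miR-377-3p: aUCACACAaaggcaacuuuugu
No seed was shared among the 7. The probe sets carry the names of the microRNA genes and do not tell the arms of a hairpin apart.

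Gli1 was followed most closely by Stmn1, a regulator of microtubules (0.975), Celsr3 (0.970), Prodh (0.969), Plxdc1 (0.969) and Mecr (0.968). Smo was followed by Cuedc1 (0.983), Magi1 (0.977), Fbn2, a fibrillin of the extracellular matrix (0.977), Speg (0.976) and Des, the muscle intermediate filament desmin (0.975). The correlation between Smo and Gli1 was -0.902. These values, too, are descriptions over 18 arrays that share 6 groups.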

How the data were processed

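Total RNA of 18 samples (6 groups of 3) was hybridised to Affymetrix Mouse Gene 1.0 ST arrays. The authors deposited log2 expression values. The submitters' processing notes name RMA and the Affymetrix Expression Console; the versions are not given in the sources used here. RMA normalises all arrays to 1 distribution and compresses low signals.

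Of 35556 probe sets, 21789 carried 1 gene symbol, 1621 several and 12146 none in the platform annotation. Symbols with several probe sets (999) took the one with the highest mean, which left 19938 genes. One limma model (3.58.1, R 4.3.3) with 6 group means, 12 residual and 3.78 prior degrees of freedom gave each change, its SE from the spread shared over groups, and p-values adjusted by Benjamini-Hochberg over 19938 genes, called under 0.05. On simulated data for adult minus ES on 129SV, 197 of 200 genes among 19938 that were changed by 1 log2 unit were recovered. The members changed by at most 0.59 in that comparison, and the recovery of such smaller changes was not simulated. The number of arrays limits the precision.

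The members and lists were chosen with earlier results of these data known. Named from the lists were genes called with a change of at least 1, up to 6 for each list and comparison, up to 3 markers per list by span, and the 5 genes most correlated with members whose span was at least 1. Some other markers, among them those below the dim level and Pax6, Map2 and Zic1, were added after their values were seen. So were values of named genes in other comparisons.

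The labels number replicates 1 to 3 in each group. Deviations of same-numbered arrays correlated at 0.153, 0.144 and 0.442 between the differentiated groups, all over 0.1, and not all over 0.1 in any other comparison. Differently numbered arrays of the differentiated groups reached 0.307, so pairing is not settled there either. The main model held no replicate block, and a block on the compared arrays alone was fitted only for the differentiated groups. Alternatives were the replicate block, the compared arrays alone, centred or quantile normalised arrays, array weights, dim genes left out, the mean of probe sets and each array left out. The 6-array block was added after seeing the data.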

Additional observations from a re-analysis of the deposited data

Results flagged for a closer look

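The response of 2 members to origin differed between backgrounds by a test of the interaction, Stra8 minus 129SV. For Gli1 the difference was -1.14 (limma, adjusted p = 1.26e-06), from a change of 0.40 on 129SV to one of -0.73 on Stra8, and the arrays of adult and ES cells did not overlap on either background. For Gli3 it was 0.28 (adjusted p = 0.00556), with a change of 0.15 on 129SV and of 0.44 on Stra8. These are 2 of 7 members tested, beside 21.3% of all genes called higher and 21.8% lower.

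The response of 4 members to differentiation differed between adult and ES cells of 129SV. The difference was -0.63 for Gli1 (limma, adjusted p = 0.000600), -0.24 for Gli2 (adjusted p = 0.0404), -0.53 for Ihh (adjusted p = 0.0287) and -0.48 for Shh (adjusted p = 0.0172). Gli1 and Gli2 fell in both origins and by more in adult cells, whereas Ihh rose in ES cells and Shh fell in adult cells. These are 4 of 8 members, beside 24.2% of all genes called higher and 21.5% lower.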

How the results depend on the processing

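Every value of Hhip kept its direction and its side of the threshold in all 130 pairs of a comparison and a setting. Where Hhip was not tested, its value moved by less than the spread. Its change was 2.50 to 2.70 between ES backgrounds and -1.40 to -1.32 between adult and ES Stra8 cells. Hhip passed the dim filter (highest group mean of at least 7.607) only through ES Stra8 cells (8.35, the next group 7.16). The setting without dim genes therefore adds no support for Hhip. No other called member reversed. Reversals touched uncalled values. Centred and quantile normalised arrays turned Shh in adult minus ES on Stra8 (-0.016 and -0.019), Smo between ES backgrounds (0.033 and 0.017) and the origin interaction of Ihh (-0.031 and -0.062). Quantile normalisation also turned the differentiation interactions of Smo (-0.14) and Gli3 (-0.068) and made that of Ptch1 a call (-0.30, adjusted p = 0.00106), and array weights turned Shh on ES differentiation (-0.084). Without single arrays Shh ranged from -0.027 to 0.045 in adult minus ES on Stra8 and from -0.053 to 0.23 on ES differentiation, Ihh from -0.0063 to 0.24 on adult differentiation, from -0.22 to 0.024 between adult backgrounds and from -0.12 to 0.13 in the origin interaction, and Smo from -0.055 to 0.023 between ES backgrounds. With array weights 8690 genes, not 5638, were called between adult and ES Stra8 cells, 5 members, not 3, between adult backgrounds, and 1 member, not 4, in the differentiation interaction, which the compared arrays alone put at 2. Between differentiated groups the compared arrays alone called 3 members and 3537 genes, and the 6-array replicate block 3 and 4244, against 6 and 6419. A replicate block over all 18 arrays changed no member's call, with 9220 genes between adult and ES 129SV cells against 9196. Without single arrays, members called ranged from 4 to 6 (adult minus ES, 129SV), 4 to 5 (Stra8), 4 to 6 (differentiated), 7 to 7 (differentiation, ES and adult), 4 to 5 and 3 to 4 (backgrounds, ES and adult), 2 to 2 and 2 to 4 (interactions). Of 19938 genes, those called ranged in the same order from 8251 to 8653, 4550 to 4917, 5329 to 6768, 10253 to 10976 and 10993 to 11950, 7275 to 7542 and 9094 to 9628, and 7977 to 8310 and 8250 to 9716. Leaving out dim genes removed Shh. The cause of these shifts was not tested.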

Other observations

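MicroRNA genes around the 4 that followed Hhip were examined as a set chosen after the values of those 4 had been seen. Within 100 kb on each side, 27 other microRNA genes were measured. Their Pearson correlation with Hhip over the 18 arrays lay between 0.557 and 0.904, with a median of 0.789 (-0.074 over all 19937 other genes). Of the 27, 18 or 66.7% had their highest group mean in ES Stra8 cells (12.3% of all genes) and 17 or 63.0% their lowest in ES 129SV cells (13.6% of all genes). These groups are those in which Hhip was highest and lowest, and the genes lie side by side and are not independent.

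The 3 tested genes on each side of Hhip on chromosome 8 changed far less than Hhip did. Between ES Stra8 and ES 129SV cells, Smarca5, a chromatin remodelling ATPase, was higher by 0.47 (limma, adjusted p = 0.00314), Otud4 by 0.42 (adjusted p = 0.00155), Abce1, which recycles ribosomes, by 0.41 (adjusted p = 5.34e-06) and Anapc10, a subunit of the anaphase-promoting complex, by 0.28 (adjusted p = 0.00292). The changes of 4930505O20Rik (0.17) and Frem3 (-0.16) did not pass. Between adult and ES Stra8 cells, where Hhip changed by -1.36, the 6 neighbours changed by -0.21 to 0.08, and only Anapc10 (-0.21, adjusted p = 0.0269) passed.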
